A study of Mus musculus with 55 samples.

Results

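The 8 genes described here carry fatty acid oxidation under the nuclear receptor PPAR alpha in mouse liver, and were chosen by symbol: Ppara, Ppargc1a, Cpt1a, Cpt2, Ehhadh, Acadm, Acot1 and Fgf21. They are 8 of the 34490 symbols counted in both batches of liver RNA-seq libraries, and all 8 had a row in every library and passed the filter on low counts in each fit, Fgf21 in the hepatectomy fit only through 3 R&Z del libraries.

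The study deleted Rnf43 and Znrf3, which encode cell-surface ubiquitin ligases that remove Wnt receptors, in adult liver. R&Z del mice carried floxed alleles of both genes that had been recombined, and R&Z flox mice carried the same unrecombined floxed alleles and are labelled wild type. All mice were C57BL/6. For the 1-month livers (1M), the second-batch 3-month livers (3M) and the hepatectomy livers, Cre came from the AAV8-TBG-Cre virus, which acts in hepatocytes, with a null virus in controls. For the first batch and the 7-month livers (7M), it came from tamoxifen given to mice with Alb1-CreERT2, with an oil vehicle in controls. The times of undamaged livers count months after deletion. Chronic damage (CD) was repeated injection of the hepatotoxin CCl4, with livers taken 4, 50 or 170 days after the last dose. Partial hepatectomy (PHx) livers were taken 7 or 21 days after surgery. The labels mark the R&Z flox CD livers as damaged, and the paper's results describe control littermates put through the same damage regimen. The methods instead state that unrecombined littermates received corn oil alone, so the sources conflict on this point. These livers are treated here as labelled. The first batch held 4 undamaged R&Z flox livers (2 at 3M, 2 at 7M), 3 undamaged R&Z del livers (1 at 3M, 2 at 7M) and, after CCl4, 2 against 2 at 4 and 170 days and 1 R&Z flox against 2 R&Z del at 50 days. The second batch held 4 against 4 at 1M, 3 R&Z flox against 1 R&Z del at 3M, 3 against 3 at 7M, and 3 against 3 at each time after PHx. Mice were male except 2 of 4 in each 1M group, 1 first-batch R&Z del liver at 3M, 1 first-batch R&Z flox liver at 7M and 1 R&Z del liver 21 days after PHx. Title and characteristics disagree for 7 first-batch records, of which 4 joined no group and 1 served as an alternative. The other 2, R&Z del 3M replicate 4 and R&Z flox 7M replicate 5, were grouped by their characteristics and entered the fits. The study's sample list gives the 2 R&Z flox livers of 170 days under 50 days as well, and they are used here at 170 days as labelled, which leaves 1 control liver at 50 days.

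PPAR alpha is a fatty acid receptor that pairs with the retinoid receptor RXR and switches on the liver's fasting programme. Ppargc1a encodes the coactivator PGC-1 alpha. Cpt1a and Cpt2 encode the outer and inner enzymes of the carnitine shuttle, which moves long-chain acyl groups into mitochondria. Acadm encodes the medium-chain acyl-CoA dehydrogenase of mitochondrial beta-oxidation, Ehhadh the bifunctional enzyme of peroxisomal beta-oxidation, and Acot1 a cytosolic thioesterase that frees fatty acids from acyl-CoA. Fgf21 encodes a fasting hormone that the liver secretes and that signals through the co-receptor beta-Klotho. Apart from Ppara itself and the coactivator, the other 6 are known PPAR alpha targets.

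On mm10, the build of the files, Ppara spans chromosome 15 from 85734910 to 85806851 on the plus strand and Ppargc1a spans chromosome 5 from 51454249 to 52115853 on the minus strand. Cpt1a lies on chromosome 19 (3322326 to 3385735, plus strand) and Cpt2 on chromosome 4 (107903982 to 107923589, minus strand). Ehhadh lies on chromosome 16 (21761285 to 21787834, minus strand) and Acadm on chromosome 3 (153922353 to 153944643, minus strand). Acot1 lies on chromosome 12 (84009502 to 84017670, plus strand) and Fgf21 on chromosome 7 (45613890 to 45615490, minus strand). Values count reads over all exons of a gene. Acot1 is the member whose counts are least certain, because 47.1% of its 1515 50-base windows occur in other genes too. In Acot2 alone it was 34.8%, and Acot5 shared the next most. The share was at most 0.136% for the other 7.

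Promoters of the 4 genes that passed a test in at least 1 comparison (Ppara, Cpt1a, Acadm and Fgf21) are shown because they carry the results below. Each runs from 250 bases before to 50 after the RefSeq start site on GRCm38.p6: chr15:85735526-85735825 plus for Ppara, chr19:3323051-3323350 plus for Cpt1a, chr3:153944594-153944893 minus for Acadm and chr7:45615441-45615740 minus for Fgf21. Sequences are RefSeq's, and capitals mark AGGTCA or its reverse complement TGACCT, the half-site of nuclear receptors such as PPAR alpha.
Ppara: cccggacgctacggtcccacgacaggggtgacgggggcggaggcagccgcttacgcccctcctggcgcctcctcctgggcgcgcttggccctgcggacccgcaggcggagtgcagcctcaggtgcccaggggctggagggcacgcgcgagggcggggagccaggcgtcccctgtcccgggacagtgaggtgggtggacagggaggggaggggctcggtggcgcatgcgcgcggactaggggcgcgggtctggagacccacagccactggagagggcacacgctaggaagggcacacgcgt
Cpt1a: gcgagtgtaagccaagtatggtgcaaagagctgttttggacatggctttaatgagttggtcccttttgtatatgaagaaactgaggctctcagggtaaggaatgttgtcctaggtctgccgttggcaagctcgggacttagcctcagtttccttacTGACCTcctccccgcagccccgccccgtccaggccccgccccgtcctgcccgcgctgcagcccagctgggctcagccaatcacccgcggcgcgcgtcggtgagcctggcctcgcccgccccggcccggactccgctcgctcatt
Acadm: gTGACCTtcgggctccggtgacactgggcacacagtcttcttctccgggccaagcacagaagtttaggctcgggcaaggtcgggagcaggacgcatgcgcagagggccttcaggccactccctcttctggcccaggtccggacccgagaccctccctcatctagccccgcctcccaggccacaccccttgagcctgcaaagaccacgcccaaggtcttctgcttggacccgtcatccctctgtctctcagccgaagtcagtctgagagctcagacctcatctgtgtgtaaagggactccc
Fgf21: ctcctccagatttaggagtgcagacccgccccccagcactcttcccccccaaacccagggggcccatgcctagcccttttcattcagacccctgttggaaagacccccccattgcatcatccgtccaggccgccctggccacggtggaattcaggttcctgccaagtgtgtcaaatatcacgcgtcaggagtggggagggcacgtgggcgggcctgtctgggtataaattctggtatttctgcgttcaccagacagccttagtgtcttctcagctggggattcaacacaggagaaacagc
Cpt1a held 1 TGACCT, 94 bases before its start, and Acadm held 1, 249 bases before its start. The promoters of the other 6 members, Ppara and Fgf21 among them, held no half-site. Of all 32851 promoters of that length 5340 (16.3%) hold one. The full PPAR element, 2 half-sites with 1 base between (AGGTCANAGGTCA, TGACCTNTGACCT on the other strand, which contains the half-site), was searched on both strands with up to 2 mismatches. None of the 8 promoters held it, and 3.86% of all promoters did. Motif matches are descriptions of letters in these windows only.

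Each library held between 11721687 and 38692089 counted reads (median 22982428), of which 95.28% to 98.77% fell on symbols counted in both batches. Values are given as counts per 1000000 of those reads (CPM). No pair of the 53 libraries was identical. Of these libraries, 48 entered the comparisons. The summed CPM of 8 hepatocyte markers was 110400 to 169500 in R&Z flox groups apart from 94610 in 1 library 170 days after CCl4, and 78350 to 151200 in R&Z del groups, with no marker at 0. Whole-gene counts cannot show the deletion of exons, and mean CPM of the targeted genes was higher in R&Z del livers at 1M, 50.3 against 9.65 for Rnf43 and 83.4 against 20.6 for Znrf3. In bulk liver, fewer cells of a type and less RNA per cell cannot be told apart.

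Per length, 4 enzymes stood above the rest in undamaged R&Z flox livers of both batches. Acadm had a level of 109.8 ± 14.7 reads per kilobase of exon and library size (RPKM; SD, n = 4) in the first batch and 91.2 ± 33.1 (n = 10) in the second. Ehhadh (79.4 ± 31.02 and 49.4 ± 14.4 RPKM) and Cpt2 (76.9 ± 7.72 and 68.4 ± 11.2 RPKM) overlapped each other in range, and both overlapped Acadm except Cpt2 in the first batch. Cpt1a followed at 33.0 ± 9.23 and 30.6 ± 8.80 RPKM, below the ranges of Acadm and Cpt2 in both batches and overlapping Ehhadh in the second. Lower still and with overlapping ranges lay Acot1 (12.9 ± 4.31 and 8.44 ± 5.46 RPKM), Fgf21 (8.87 ± 8.08 and 2.12 ± 2.67 RPKM) and Ppara (7.62 ± 2.25 and 12.4 ± 4.01 RPKM). Ppargc1a was the lowest, at 0.297 ± 0.090 and 0.801 ± 0.658 RPKM, and in the second batch its range of 0.0754 to 2.24 RPKM overlapped those of Acot1 and Fgf21. Within the second batch Fgf21 ran from 0 to 7.47 RPKM, with some livers holding no read of the hormone at all.

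The first comparison asked how deletion changed these genes in undamaged liver. In the text below a gene passed, or was called, at a Benjamini-Hochberg adjusted p under 0.1 in edgeR's quasi-likelihood test over all genes together with an absolute log2 fold change over 1. At 1M, 1 of the 8 members, Fgf21, was called, and 0.436% of all 12848 genes tested were. The fit took in undamaged livers of all ages from both batches, with terms for sex and batch.

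Fgf21 had no read in any of the 4 R&Z flox livers at 1M, a total of 0 counts where 3 would be 0.0303 CPM over the group. In the 4 R&Z del livers it had 167, 53, 0 and 7 reads, or 6.29, 2.16, 0 and 0.339 CPM. The 2 livers with most reads were the females, and the male with 0 reads equalled the R&Z flox livers, so the ranges touched. Pooled over the group the R&Z del level was at least 80.2-fold higher than the floor of 3 counts over the R&Z flox group, and at least 29.6-fold without R&Z del replicate 1, which held 167 of the 227 reads. The adjusted p was 0.0977, close to the threshold, and the call was lost in 18 of the 25 fits that left out 1 library (adjusted p 0.0357 to 0.286 over all 25) and among males alone (adjusted p 0.688). The call held without R&Z del 1M replicate 3, 7M replicate 4 or either 3M library, or without second-batch R&Z flox 3M replicate 5 or 7M replicates 3 or 4, and was lost without any other library. It was also lost in the second batch alone (adjusted p 0.395) and without the 2 libraries whose labels disagree (adjusted p 0.113). The hormone's mRNA was present in R&Z flox livers of the same batch at other ages, with 3.804, 2.85 and 4.76 CPM at 3M and 1.61, 7.07 and 0 CPM at 7M.

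The receptor and the shuttle enzyme Cpt1a showed the same division by sex at 1M. Ppara had 200.2 and 173.0 CPM in the R&Z del females and 81.0 and 83.2 CPM in the R&Z del males, against 116 and 70.7 CPM in R&Z flox females and 88.0 and 105.9 CPM in R&Z flox males. Cpt1a had 208.0 and 250.3 CPM in the R&Z del females and 114.0 and 117.8 CPM in the males, against 139.5 and 97.96 CPM in R&Z flox females and 125.8 and 141.8 CPM in males. In both genes the R&Z del females were the highest of the 8 livers and the R&Z del males lay within the R&Z flox range. A difference between the sexes in the effect of deletion was not tested, and the females were the replicates numbered 1 and 2. Over all 4 livers the fitted log2 fold change was 0.24 ± 0.28 (SE, adjusted p = 0.985) for Ppara and 0.21 ± 0.26 (adjusted p = 0.988) for Cpt1a.

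Ehhadh, the peroxisomal enzyme, had 88.96, 122.2, 162.6 and 107.4 CPM in R&Z flox livers at 1M and 342.9, 217.5, 106.6 and 194.7 CPM in R&Z del livers. In 3 of the 4 R&Z del livers Ehhadh exceeded every R&Z flox liver and the fourth fell inside their range. The log2 fold change of 0.60 ± 0.32 did not pass (adjusted p = 0.698). Acadm and Cpt2 overlapped between the genotypes. Acadm ran from 121.6 to 153.9 CPM in R&Z flox and from 128.2 to 228.5 CPM in R&Z del, and Cpt2 from 131.9 to 172.4 and 142.2 to 177.7 CPM. Acot1 ran from 2.24 to 25.9 CPM in R&Z flox and from 7.79 to 25.5 CPM in R&Z del, and Ppargc1a from 1.67 to 15.7 and 0.459 to 32.8 CPM. Their log2 fold changes lay between −0.21 and 0.22. The median over the 8 members was 0.21, against 0.01 over all genes tested, and TMM scaling, which sets libraries on a common scale from genes of moderate change, lowered all genes by 0.18 against library totals alone. Of the called genes 50.0% were higher in R&Z del with TMM and 67.9% with library totals. The 8 hepatocyte markers summed to 85580 to 104000 CPM in R&Z del and 135600 to 155300 CPM in R&Z flox livers at 1M, with 1 called lower and a median of −0.47, and their part in these values was not tested.

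**Figure D1:**
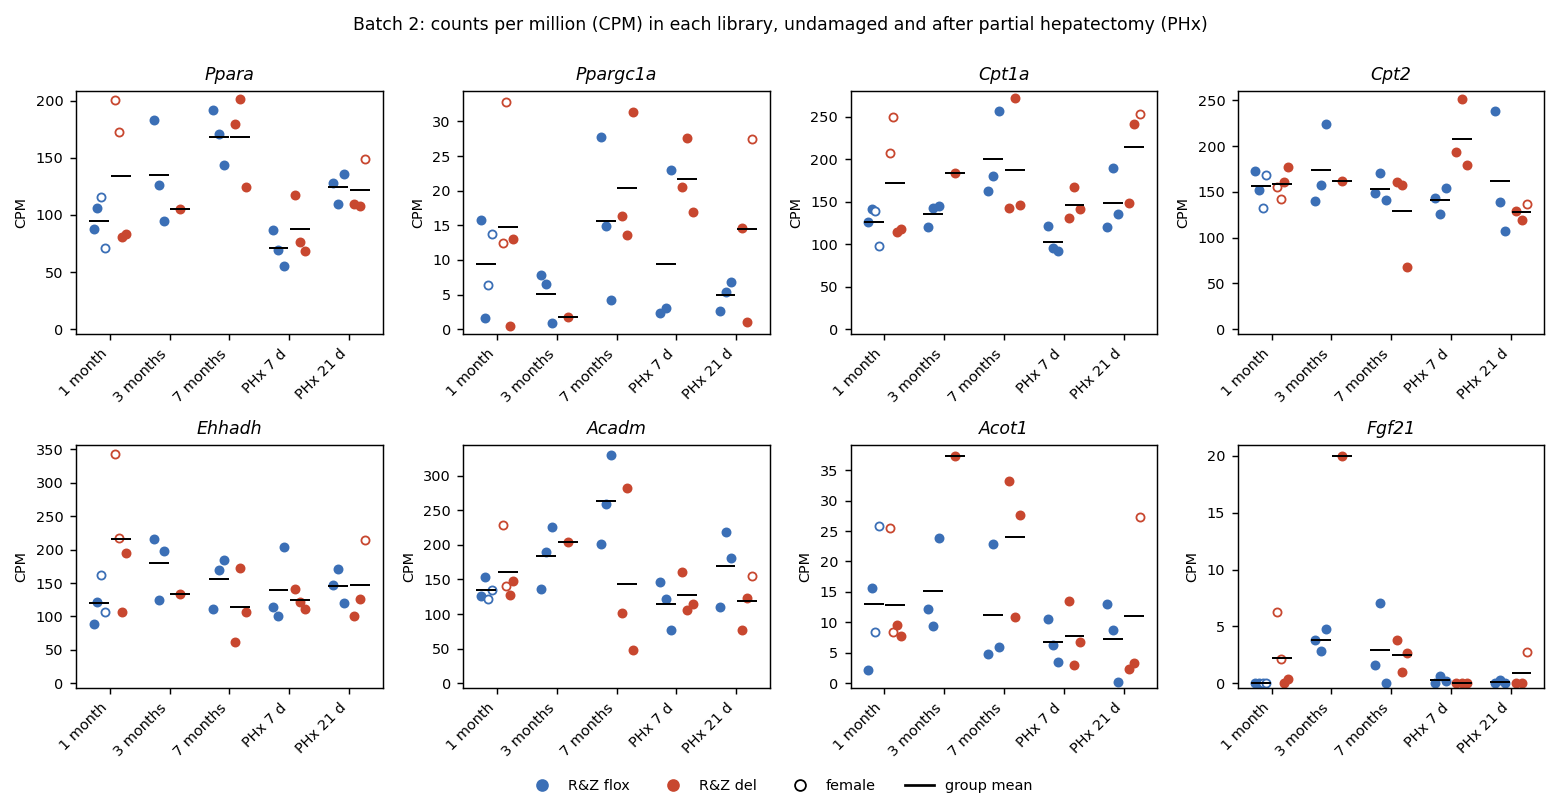
CPM of each gene in every second-batch library, undamaged at 1, 3 and 7 months and 7 and 21 days after partial hepatectomy, with R&Z flox in blue, R&Z del in red, females as open circles and group means as bars. At 1 month the R&Z del females are the highest for Ppara (173.0 and 200.2 CPM) and Cpt1a (208.0 and 250.3 CPM), and Fgf21 is at 0 in all 4 R&Z flox livers.

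At 3M none of the 8 members was called by edgeR, none had an unadjusted p under 0.05, and the likelihood ratio test and DESeq2 also called 0. The share of all genes called was 0.226%. Only 2 R&Z del livers of that age were available, 1 from each batch. In the second batch the single R&Z del male exceeded all 3 R&Z flox males in Fgf21 (19.98 CPM against 2.85 to 4.76), Acot1 (37.3 against 9.42 to 23.8 CPM) and Cpt1a (184.4 against 120.6 to 145.1 CPM), which was 3 of 8 members where 47.76% of genes did not overlap. In the first batch the R&Z del female had 13.7 CPM of Fgf21 against 2.58 and 6.64 CPM in R&Z flox males, so sex and genotype cannot be told apart there. The undamaged R&Z flox female of that batch, at 7M, had 19.6 CPM, and both females are records whose labels disagree. In all, 6 of 8 members did not overlap at 3M in the first batch, where 68.45% of genes did not. The fitted log2 fold changes were 1.63 ± 1.39 for Fgf21, 0.80 ± 0.72 for Acot1 and 0.51 ± 0.32 for Cpt1a, with adjusted p of at least 0.826 for all 8. Ppara (−0.24), Ppargc1a (−0.59 ± 1.23), Cpt2 (−0.01), Ehhadh (−0.41) and Acadm (0.04) had their second-batch R&Z del value inside the R&Z flox range.

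At 7M again 0 of 8 members were called by edgeR, against 0.451% of all genes, with 1 at an unadjusted p under 0.05 and 0 by the likelihood ratio test and DESeq2. That one was Acot1, with 4.89, 22.9 and 6.03 CPM in second-batch R&Z flox livers and 33.3, 10.9 and 27.7 CPM in R&Z del livers. In the first batch Acot1 had 10.6 and 20.7 CPM against 34.9 and 11.1 CPM, and in each batch 1 R&Z del liver lay among the R&Z flox livers. Its log2 fold change was 1.15 ± 0.55 (adjusted p = 0.552). Acadm had 201.1, 259.2 and 330.3 CPM in second-batch R&Z flox livers and 101.0, 281.3 and 48.1 CPM in R&Z del livers, a difference of −0.55 ± 0.30 on the log2 scale (adjusted p = 0.627). The first batch gave 206.8 and 233.2 CPM against 269.7 and 139.9 CPM, with an R&Z del liver on either side of the R&Z flox range, whereas in the second batch 2 of the 3 R&Z del livers lay below that range and 1 inside it. Ppara (143.4 to 191.5 CPM in R&Z flox, 124.8 to 201.5 CPM in R&Z del), Cpt1a (162.6 to 257.3 and 143.0 to 271.9 CPM) and the other members overlapped as well. Their log2 fold changes were 0.12 for Ppara, 0.28 for Cpt1a, 0.44 ± 0.79 for Ppargc1a, −0.10 for Cpt2, −0.17 for Ehhadh and 0.57 ± 1.05 for Fgf21. Called genes were 55.2% higher with TMM and 41.2% with library totals.

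Whether the effect of deletion changed with age was tested on the difference of effects. The virus deleted the genes in the 1M livers and tamoxifen in the 7M livers, so age and deletion method cannot be told apart there. The 3M livers mix the methods by batch. From 1M to 3M 0 of 8 members and 0% of genes passed in edgeR, 1 member (Fgf21) had an unadjusted p under 0.05, and neither the likelihood ratio test nor DESeq2 called a member. From 1M to 7M 0 of 8 members and 0% of genes passed in edgeR, again with Fgf21 alone at an unadjusted p under 0.05. Here both other tools called Fgf21, the likelihood ratio test among 30 genes and DESeq2 among 105. These differences share the 1M libraries, where Fgf21 was at 0 in all R&Z flox livers, and TMM scaling raised all genes by 0.16 and 0.25 in them.

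**Figure D2:**
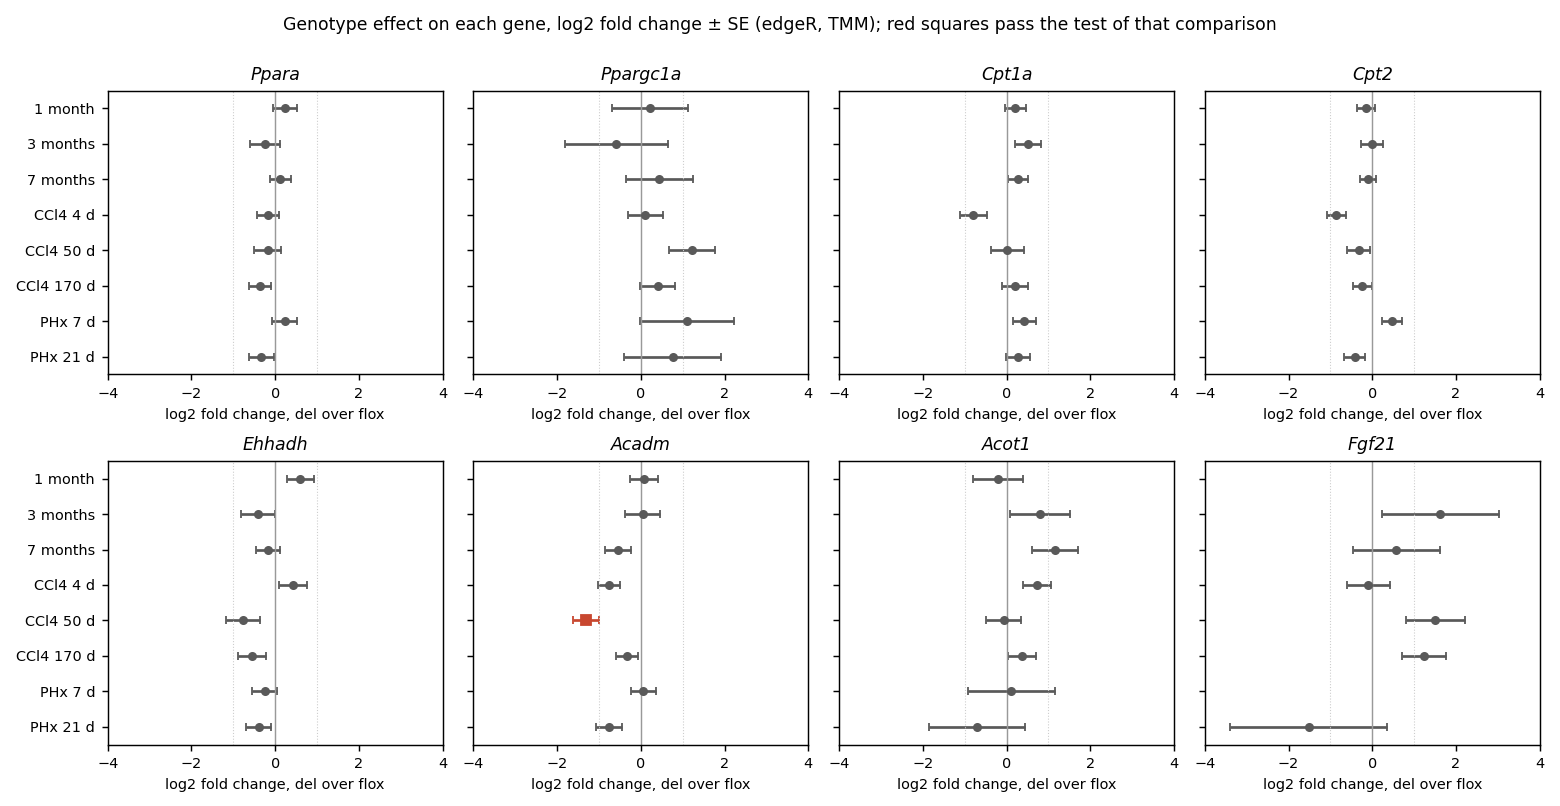
Fitted log2 fold change between the genotypes, positive where R&Z del was higher (horizontal axis, ± SE from edgeR with TMM scaling) for each gene at each age and after each kind of damage, with dotted lines at −1 and 1 and red squares for genes past the test of that comparison. Acadm 50 days after CCl4 (−1.30) is the one red square, and Fgf21 is not drawn at 1 month and 7 days after hepatectomy, where 1 group had no reads.

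The next comparison set R&Z del against R&Z flox livers after CCl4, within the first batch and in males. At 4 days after the last dose, 0 of 8 members passed both criteria, against 15.2% of all 11358 genes, although 3 had an unadjusted p under 0.05 (Cpt1a, Cpt2 and Acadm). The likelihood ratio test and DESeq2 called 0 too. The 2 shuttle enzymes and Acadm were lower in R&Z del livers by 0.77 to 0.86 on the log2 scale, and Cpt2 and Acadm passed the adjusted p alone but not the fold minimum.

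This comparison depends on how libraries are scaled. The TMM factors of the 2 R&Z del libraries were 1.27 to 1.47, and TMM scaling lowered the fold change of all genes by 0.51 on the log2 scale against library totals alone. With TMM 67.5% of called genes were higher in R&Z del, and with library totals 93.4%. Directions for Ppara, Ppargc1a, Cpt1a and Fgf21 below are therefore given on both scales.

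Cpt2 had 184.3 and 203.1 CPM in R&Z flox livers and 151.9 and 149.3 CPM in R&Z del livers, with both R&Z del livers lower. Its log2 fold change was −0.86 ± 0.23 (adjusted p = 0.0312) with TMM and −0.36 with library totals. Cpt1a had 188.2 and 208.2 CPM against 180.4 and 140.6 CPM, again both lower, with −0.80 ± 0.32 (adjusted p = 0.110) and −0.30 on the 2 scales. Acadm had 184.4 and 238.0 CPM against 159.7 and 191.7 CPM, where the ranges overlapped, with −0.77 ± 0.26 (adjusted p = 0.0713) and −0.26. In TMM-scaled CPM the Acadm ranges did not overlap (191.8 and 240.8 against 121.9 and 130.8). The 3 mitochondrial enzymes thus kept their sign under either scaling, at different sizes.

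Ehhadh and Acot1 were higher in R&Z del livers on both scales. Ehhadh had 145.4 and 274.8 CPM in R&Z flox and 349.0 and 448.1 CPM in R&Z del, with a log2 fold change of 0.42 ± 0.34 (adjusted p = 0.404) with TMM and 0.93 (adjusted p = 0.0832) with library totals. Acot1 had 9.03 and 15.8 CPM against 28.5 and 29.7 CPM, with 0.73 ± 0.34 (adjusted p = 0.158) with TMM, and was called with library totals at 1.24 (adjusted p = 0.0334). Both R&Z del livers exceeded both R&Z flox livers in these 2 genes. Acot2, the mitochondrial thioesterase whose sequence Acot1 shares, had 2.92 and 6.61 CPM against 35.8 and 34.8 CPM and was called on both scales, and reads could be split between them.

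The regulators and the hormone were near 0 with TMM and above 0 with library totals. Ppara had 47.7 and 45.2 CPM in R&Z flox and 67.5 and 48.4 CPM in R&Z del, with log2 fold changes of −0.17 ± 0.26 (TMM, adjusted p = 0.679) and 0.33 (library totals), so its direction turned. Fgf21 had 5.18 and 19.5 CPM against 13.7 and 19.0 CPM, with −0.10 ± 0.52 (adjusted p = 0.913) and 0.41. Ppargc1a had 4.498 and 2.47 CPM against 5.71 and 4.88 CPM, with 0.10 ± 0.42 (adjusted p = 0.886) and 0.61. In CPM, 6 of 8 members did not overlap between the genotypes at 4 days, where 78.83% of genes did not. The members' median log2 fold change was −0.13 with TMM, against 0.06 over all genes.

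Markers of other cells moved with genotype at this time. All 6 cholangiocyte markers were called higher in R&Z del livers, with a summed level of 3670 to 6537 CPM against 89.9 to 161.3 CPM in R&Z flox and 60.4 to 153.6 CPM in undamaged R&Z del livers. Of 5 cell-cycle markers tested 3 were called higher (summed level of the 6 listed 176.5 to 206.7 against 34.4 to 71.2 CPM), and of 6 stellate and fibroblast markers 2 (371.5 to 1012 against 209.2 to 310.3 CPM). No hepatocyte marker was called, but all 8 were below 0 with TMM, with a median of −0.73 and a summed level of 86580 to 107600 against 110400 to 113700 CPM. Of 6 endothelial markers 2 were called lower and none was above 0, and 1 macrophage marker was called higher and 1 erythroid marker lower. Fasting and feeding genes, which change with food intake, had 1 of 8 called higher and 3 lower (median −0.78), and clock genes had 3 of 10 higher and 1 lower. Their part in the values of the 8 genes was not tested.

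**Figure D3:**
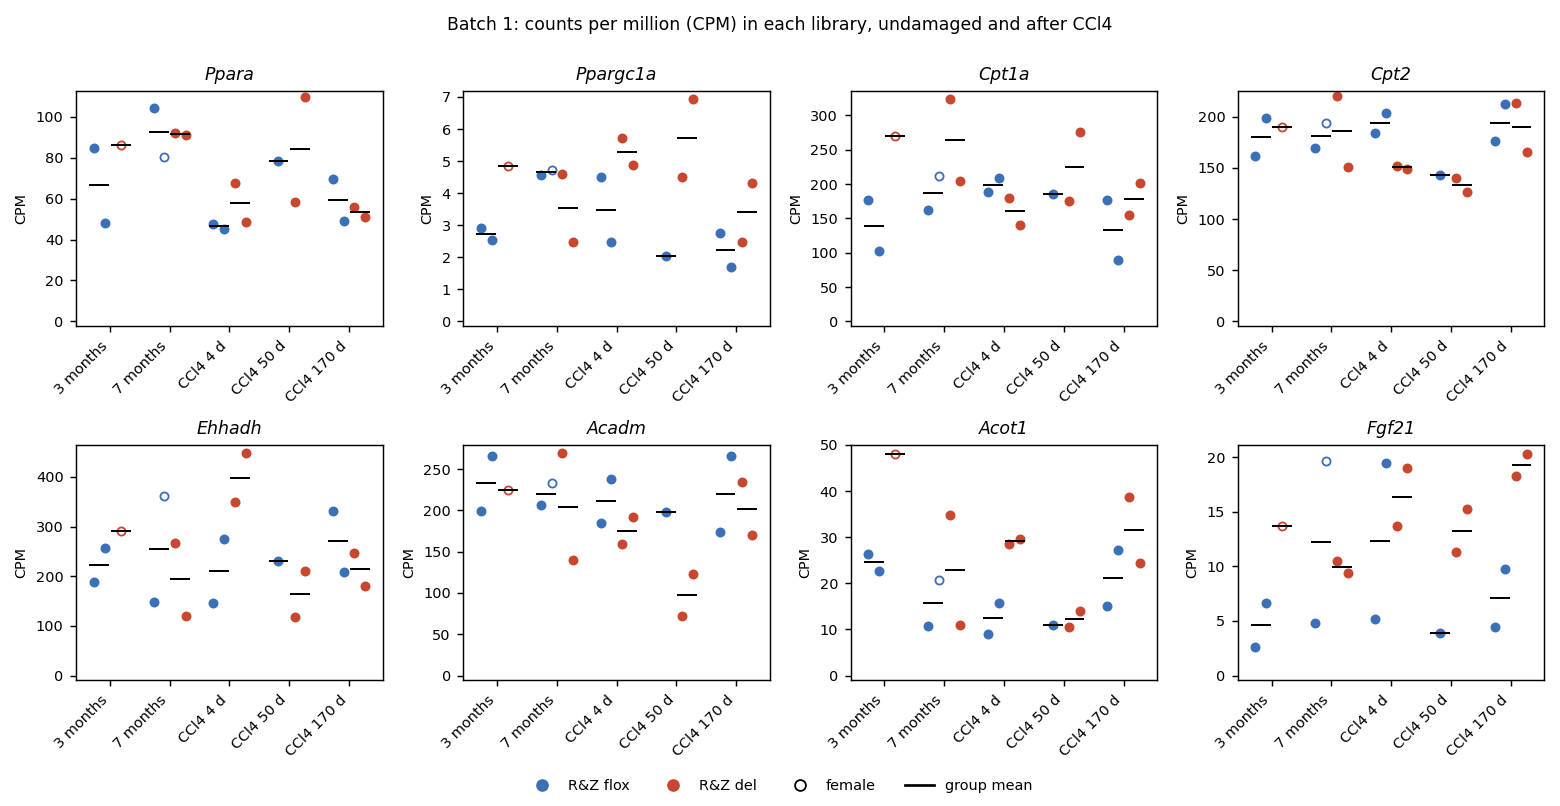
CPM of each gene in every first-batch library, undamaged at 3 and 7 months and 4, 50 and 170 days after the last CCl4 dose, with R&Z flox in blue, R&Z del in red, females as open circles and group means as bars. Ppara runs from 45.2 to 67.5 CPM over both genotypes 4 days after CCl4 and from 49.1 to 69.6 CPM at 170 days, and 1 undamaged R&Z flox liver has 47.9 CPM. Acadm is lower in both R&Z del livers at 50 days (71.8 and 122.6 CPM) than in the R&Z flox liver (198.7 CPM).

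At 50 days after CCl4, 1 of 8 members passed, Acadm, against 5.58% of all genes. Acadm had 198.7 CPM in the single R&Z flox liver and 71.8 and 122.6 CPM in the R&Z del livers, both of them lower than every other first-batch liver of either genotype. The log2 fold change was −1.30 ± 0.31 (adjusted p = 0.0712). With library totals it was −1.03 and the call was lost (adjusted p = 0.163), as it was in 5 of 10 fits that left out 1 library. These were the fits without the R&Z del libraries of 50 days replicate 1 (−1.13, adjusted p = 0.194), 4 days replicate 2 (−1.27, adjusted p = 0.107) and 170 days replicate 1 (−1.27, adjusted p = 0.104), and without the R&Z flox libraries of 4 days replicate 1 (−1.31, adjusted p = 0.107) and replicate 2 (−1.27, adjusted p = 0.119). TMM scaling lowered all genes by 0.25 here, and called genes were 47.3% higher with TMM and 79.9% higher with library totals. The single R&Z flox liver was assumed to vary like the other groups. Without the 2 R&Z flox libraries of 170 days the call held (−1.31, adjusted p = 0.0323).

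The other 7 members did not pass at 50 days. Fgf21 had 3.91 CPM in the R&Z flox liver and 11.3 and 15.3 CPM in the R&Z del livers (log2 fold change 1.51 ± 0.70, adjusted p = 0.235), and Ppargc1a had 2.04 CPM against 4.51 and 6.93 CPM (1.22 ± 0.55, adjusted p = 0.222). Both genes were higher in both R&Z del livers. Ehhadh had 230.5 CPM against 118.3 and 209.7 CPM (−0.77 ± 0.40, adjusted p = 0.283), lower in both. Ppara (78.3 against 58.6 and 109.6 CPM) and Cpt1a (185.0 against 175.0 and 275.4 CPM) had R&Z del livers on either side of the R&Z flox liver, as did Acot1 (10.9 against 10.6 and 14.04 CPM, −0.07 ± 0.42). Cpt2 had 143.2 CPM against 139.8 and 125.9 CPM (−0.32 ± 0.27, adjusted p = 0.511). In all, 5 of 8 members did not overlap in CPM, where 69.35% of genes did not. Cholangiocyte markers summed to 605 to 1189 CPM in R&Z del and 104.2 CPM in R&Z flox at this time, with 1 of 6 called higher. Of 5 cell-cycle markers 2 were called higher, of 6 stellate and fibroblast markers 1 higher, of 8 hepatocyte markers 1 lower and of 8 fasting and feeding genes 1 lower. Their part in the Acadm difference was not tested.

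At 170 days after CCl4 0 of 8 members passed in edgeR, by the likelihood ratio test or by DESeq2, against 0.625% of all genes, and 1 had an unadjusted p under 0.05. That was Fgf21, with 4.41 and 9.77 CPM in R&Z flox livers and 18.3 and 20.2 CPM in R&Z del livers, the only member whose ranges did not overlap. Its log2 fold change was 1.24 ± 0.53 (adjusted p = 0.516). Acadm overlapped between the genotypes, at 174.4 and 265.4 CPM against 234.5 and 170.2 CPM (−0.33 ± 0.26, adjusted p = 0.815). Ppara had 69.6 and 49.1 CPM against 56.1 and 50.8 CPM, and Ehhadh 331.4 and 208.9 CPM against 246.6 and 181.2 CPM (−0.55 ± 0.34, adjusted p = 0.718). The remaining log2 fold changes were −0.36 for Ppara, 0.40 for Ppargc1a, 0.20 for Cpt1a, −0.24 for Cpt2 and 0.37 for Acot1. The share of genes without overlap was 48.12%, and TMM scaling lowered all genes by 0.21 at this time.

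The CCl4 livers were next set against undamaged first-batch livers of the same genotype, taking the mean of the 3M and 7M groups. The paper places the 4-day livers earlier after deletion than 3M, the 50-day livers at 3M and the 170-day livers at 7M. It also states that tamoxifen was given again in the CCl4 experiment. Damage therefore cannot be told apart from time after deletion, age or repeated tamoxifen here. The share of all genes without overlapping ranges was not computed against undamaged livers. The comparisons at 4, 50 and 170 days share these undamaged libraries. In R&Z flox livers at 4 days 0 of 8 members passed by edgeR, the likelihood ratio test or DESeq2, against 4.38% of 11182 genes, with 2 members, Ppara and Fgf21, at an unadjusted p under 0.05. Ppara had 85.0, 47.9, 104.4 and 80.6 CPM in undamaged R&Z flox livers and 47.7 and 45.2 CPM at 4 days, below all 4. Its log2 fold change was −0.93 ± 0.27, under the adjusted threshold (adjusted p = 0.0909) but short of the fold minimum, which it passed without R&Z flox 3M replicate 3 (−1.07, adjusted p = 0.0709). Fgf21 had 2.58, 6.64, 4.78 and, in a female, 19.6 CPM undamaged, against 5.18 and 19.5 CPM (1.27 ± 0.53, adjusted p = 0.234), with overlapping ranges, and was called without R&Z flox 4 days replicate 1 (1.92, adjusted p = 0.0978).

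In R&Z del livers at 4 days 2 of 8 members passed, Ppara and Cpt1a, both lower, against 28.4% of all genes. Ppara had 86.4 (a female), 91.9 and 91.0 CPM in undamaged R&Z del livers and 67.5 and 48.4 CPM at 4 days, so both CCl4 livers were lower than all 3. It fell by 1.43 on the log2 scale with TMM (SE 0.34, adjusted p = 0.0091), a call that held in all 17 fits that left out 1 library and without the 2 libraries whose labels disagree (−1.21, adjusted p = 0.00856). With library totals the difference was −0.79 and missed the threshold (adjusted p = 0.108). Cpt1a had 270.4, 324.3 and 203.9 CPM undamaged and 180.4 and 140.6 CPM at 4 days. Ranges overlapped for neither gene, but the share of all genes without overlap was not computed against undamaged livers. Cpt1a fell by 1.18 with TMM (SE 0.42, adjusted p = 0.0520) against −0.53 with library totals (adjusted p = 0.332). The Cpt1a call was lost without R&Z del 7M replicate 1 (−0.95, short of the fold minimum, adjusted p = 0.0975) and without R&Z del 4 days replicate 2 (−0.92, adjusted p = 0.223), and held without the 2 libraries whose labels disagree (−1.29, adjusted p = 0.0187).

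Cpt2 (189.7, 220.6 and 150.4 CPM undamaged, 151.9 and 149.3 CPM at 4 days) and Acadm (224.3, 269.7 and 139.9 CPM, then 159.7 and 191.7 CPM) had log2 fold changes of −0.87 ± 0.32 (adjusted p = 0.0561) and −0.86 ± 0.41 (adjusted p = 0.131). Neither passed both criteria, but both did without R&Z del 7M replicate 2 (−1.01, adjusted p = 0.0229, and −1.07, adjusted p = 0.0353). Ehhadh went the other way, with 291.8, 267.8 and 120.3 CPM undamaged and 349.0 and 448.1 CPM at 4 days, at 0.73 ± 0.49 with TMM (adjusted p = 0.278), and passed without R&Z del 7M replicate 1 (1.11, adjusted p = 0.0721). With library totals Ehhadh was called higher at 1.40 (adjusted p = 0.0402), and so was Fgf21 at 1.51 (adjusted p = 0.0851; 0.84 with TMM, adjusted p = 0.348), in place of the 2 lower calls. TMM scaling lowered all genes by 0.66 in this comparison, and called genes were 62.1% higher with TMM and 91.3% higher with library totals. The members' median was −0.61 with TMM and that of all genes 0.05. Circadian clock genes moved too, 3 of 11 called higher and 7 lower, with a summed level of 122.4 to 149.6 CPM at 4 days against 294.2 to 420.6 CPM undamaged, and their part in these values was not tested.

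Whether CCl4 acted differently in the 2 genotypes was tested on the difference of genotype effects at 4 days. Time after deletion and repeated tamoxifen differ here too and cannot be told apart from CCl4. The test passed for 1 of 8 members, Cpt1a, against 16.9% of all genes. The genotype difference in Cpt1a moved by −1.49 ± 0.47 on the log2 scale (adjusted p = 0.0587). In R&Z flox livers Cpt1a had 176.4, 102.7, 161.6 and 212.3 CPM undamaged and 188.2 and 208.2 CPM at 4 days (0.31 ± 0.33), while in R&Z del livers it fell. With library totals the difference was −0.93 and did not pass (adjusted p = 0.173), and the call was lost without R&Z del 4 days replicate 2 (−1.24, adjusted p = 0.206), R&Z flox 4 days replicate 1 (−1.54, adjusted p = 0.137) or replicate 2 (−1.43, adjusted p = 0.138). It held without the 2 libraries whose labels disagree (−1.60, adjusted p = 0.0837). Cpt2 had −0.91 ± 0.36 (adjusted p = 0.106) and passed without R&Z del 7M replicate 2 (−1.06, adjusted p = 0.04996) or R&Z flox 3M replicate 3 (−1.04, adjusted p = 0.0795). For Ppara the same test gave −0.51 ± 0.37 (adjusted p = 0.367), so a different response of the receptor in the 2 genotypes was not shown. TMM scaling lowered all genes by 0.56 here, and 58.0% of called genes were higher with TMM and 92.9% with library totals.

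**Figure D4:**
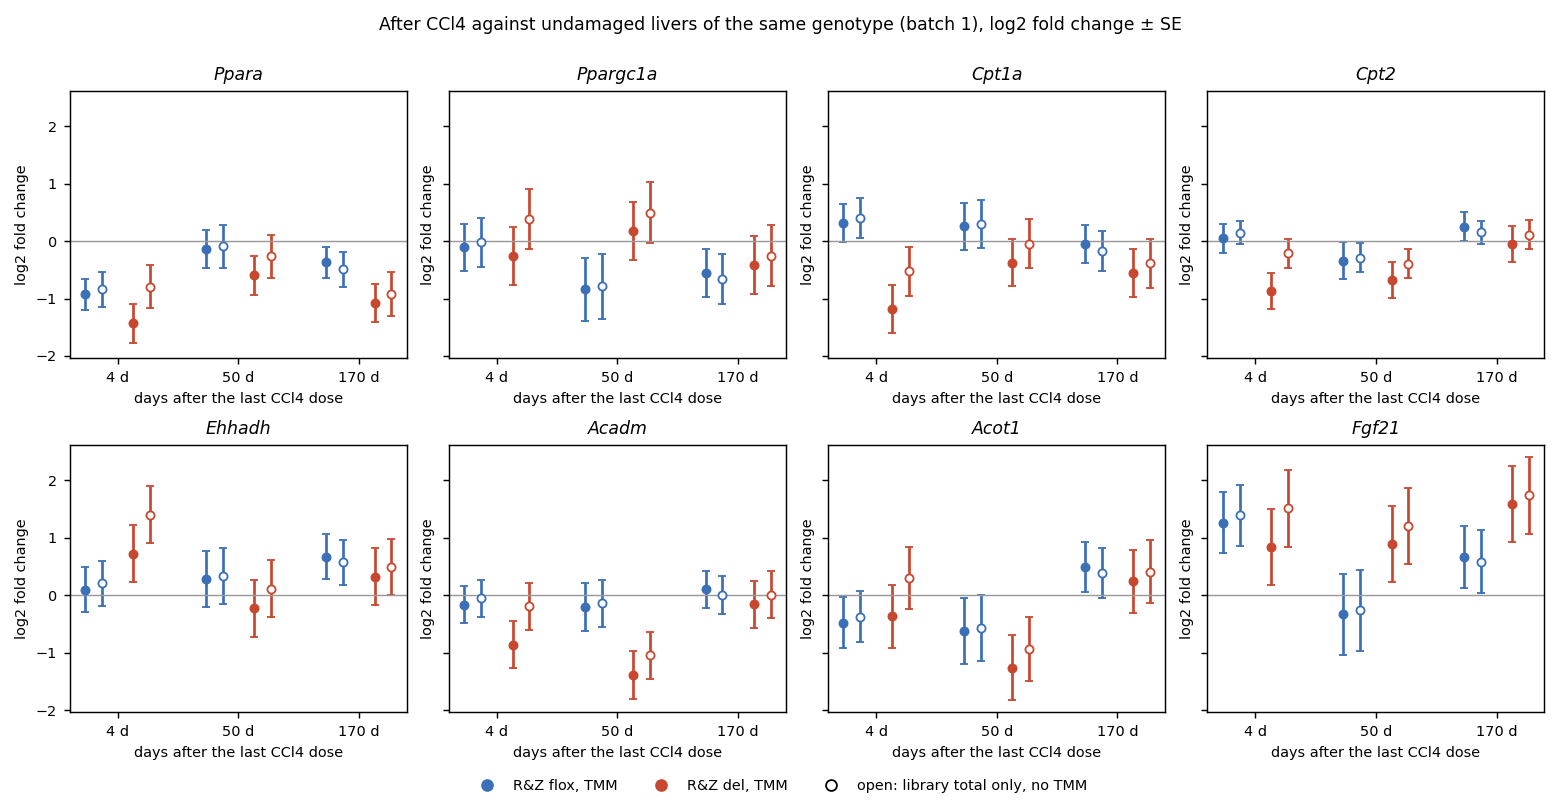
Fitted log2 fold change (vertical axis, ± SE) of livers 4, 50 and 170 days after the last CCl4 dose against undamaged livers of the same genotype in the first batch, with R&Z flox in blue, R&Z del in red, filled points for TMM scaling and open points for library totals alone. Ppara lies below 0 at 4 days in both genotypes on both scales, and Cpt1a is below 0 in R&Z del (−1.18 with TMM, −0.53 with library totals) and above 0 in R&Z flox.

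At 50 days 0 of 8 members passed in R&Z flox livers, where 0% of genes did, none had an unadjusted p under 0.05, and the likelihood ratio test and DESeq2 called 0. In R&Z del livers 1 of 8 passed in edgeR, Acadm, against 15.3% of all genes. It had 224.3, 269.7 and 139.9 CPM undamaged and 71.8 and 122.6 CPM at 50 days. These ranges did not overlap, but the share of all genes without overlap was not computed here. Acadm fell by 1.39 on the log2 scale (SE 0.42, adjusted p = 0.0502). The call was lost with library totals (−1.05, adjusted p = 0.105) and without R&Z del 50 days replicate 1 (−1.19, adjusted p = 0.142), and held without the 2 libraries whose labels disagree (−1.34, adjusted p = 0.0394). Acot1 had 48.1, 34.9 and 11.1 CPM undamaged and 10.6 and 14.04 CPM at 50 days (−1.26 ± 0.56, adjusted p = 0.143). DESeq2 called Acot1 among 1925 genes. In edgeR Acot1 was called without R&Z del 7M replicate 2 (−1.58, adjusted p = 0.0225), R&Z flox 7M replicate 1 (−1.61, adjusted p = 0.0384) or R&Z flox 7M replicate 5 (−1.61, adjusted p = 0.0386). The difference between genotypes passed for 0 of 8 members by all 3 tools, against 1.53% of genes, with 1 (Acadm, −1.18 ± 0.51) at an unadjusted p under 0.05, which passed without R&Z del 7M replicate 2 (−1.40, adjusted p = 0.0767). TMM scaling lowered all genes by 0.31 in R&Z del livers, with 66.1% of called genes higher against 87.8% with library totals, and by 0.26 in the difference.

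At 170 days 0 of 8 members passed in R&Z flox livers (0% of genes, 0 members at an unadjusted p under 0.05, 0 by the likelihood ratio test or DESeq2). In R&Z del livers 0 of 8 passed by edgeR or the likelihood ratio test, against 0.0715% of genes, with 2 at an unadjusted p under 0.05. The first was Ppara, at 56.1 and 50.8 CPM against 86.4 to 91.9 CPM undamaged (−1.07 ± 0.33, adjusted p = 0.311). DESeq2 called Ppara among 234 genes. The other was Fgf21, at 18.3 and 20.2 CPM against 13.7, 10.5 and 9.43 CPM (1.58 ± 0.66, adjusted p = 0.477). Neither gene's ranges overlapped, but the share of all genes without overlap was not computed against undamaged livers. The difference between genotypes passed for 0 of 8 members by any of the 3 tools, with 0% of genes passing and 0 members at an unadjusted p under 0.05. TMM scaling lowered all genes by 0.15 in R&Z del livers and by 0.26 in the difference and raised them by 0.11 in R&Z flox livers.

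Hepatectomy removes tissue without a toxin, and this comparison followed the study in calling a gene at an unadjusted p under 0.05 with an absolute log2 fold change over 1. At 7 days after PHx 0 of 8 members passed in edgeR, against 3.99% of 12773 genes, and 0 had an unadjusted p under 0.05. DESeq2 called 0 and the likelihood ratio test 1, Fgf21, which had 13 reads against 0 at this time and passed the low-count filter only through R&Z del libraries of other times, so nothing is read from that call. Cpt1a had 121.5, 95.6 and 91.9 CPM in R&Z flox livers and 131.0, 167.5 and 141.0 CPM in R&Z del livers, and Cpt2 had 143.3, 126.0 and 154.1 CPM against 193.5, 251.4 and 179.1 CPM. In these 2 shuttle enzymes every R&Z del liver exceeded every R&Z flox liver, where 12.82% of genes had ranges that did not overlap. The log2 fold changes were 0.42 ± 0.28 (adjusted p = 0.925) for Cpt1a and 0.48 ± 0.24 (adjusted p = 0.825) for Cpt2. Called genes were 41.8% higher with TMM and 51.9% with library totals.

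Fgf21 was almost undetected 7 days after PHx, with 0, 10 and 3 reads in R&Z flox livers and 0 reads in all 3 R&Z del livers, where 3 counts would be 0.0575 CPM over the group. Ppargc1a had 2.29, 3.09 and 22.9 CPM in R&Z flox and 20.5, 27.6 and 16.9 CPM in R&Z del livers (1.11 ± 1.12), and 1 R&Z flox liver reached the R&Z del range. Without that liver, replicate 3, Ppargc1a was called higher at 2.93 by the unadjusted rule (adjusted p = 1). Ppara ran from 55.7 to 86.9 CPM in R&Z flox and from 68.5 to 117.4 CPM in R&Z del, and Ehhadh (−0.25), Acadm (0.06) and Acot1 (0.11 ± 1.04) overlapped likewise. Among the markers, the stellate and fibroblast sum was 60.1 to 92.5 CPM in R&Z del against 183.8 to 265.6 CPM in R&Z flox livers, with 3 of 6 called lower. The hepatocyte sum was 84000 to 110000 against 139000 to 169500 CPM, with all 8 markers below 0 and 1 called, and of 11 clock genes 10 were below 0 (median −1.58) with 1 called. Single cholangiocyte and fasting and feeding genes were called lower and a pancreas marker higher. Their part in these values was not tested.

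At 21 days 0 of 8 members passed by any of the 3 tools, against 6.56% of genes, and 1 had an unadjusted p under 0.05 without the fold. That was Acadm, with 110.4, 218.1 and 180.4 CPM in R&Z flox livers and 77.6, 123.4 and 154.9 CPM in R&Z del livers (−0.75 ± 0.31, adjusted p = 0.535), overlapping in range. Cpt1a had 120.4, 189.6 and 136.1 CPM against 148.3, 242.1 and 253.7 CPM (0.28 ± 0.28, adjusted p = 0.859). Ppara (−0.33), Ppargc1a (0.76 ± 1.17), Cpt2 (−0.42), Ehhadh (−0.40) and Acot1 (−0.71 ± 1.14) overlapped between the genotypes too. Fgf21 had 0, 5 and 0 reads in R&Z flox and 0, 0 and, in the female, 46 reads in R&Z del. The members' median was −0.41, and −0.01 over all genes. Called genes were 46.4% higher with TMM and 57.4% with library totals, a shift of 0.11 in all genes. Of 6 cholangiocyte markers 1 was called higher and 3 lower at this time, of 8 hepatocyte markers and of 11 clock genes 1 each lower, and of 8 fasting and feeding genes 1 higher, and their part was not tested.

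Against undamaged 1M livers of the same genotype, in 1 fit that shares those libraries, no member passed after PHx. At 7 days the counts were 0 of 8 in R&Z flox (0.0235% of genes), 0 of 8 in R&Z del (0.0157%) and 0 of 8 for the difference between genotypes (0%), with 1, 0 and 2 members at an unadjusted p under 0.05. At 21 days they were 0 of 8 each, where 0% of genes passed in R&Z flox, in R&Z del and in the difference, with 3, 0 and 2 members at an unadjusted p under 0.05. Fgf21 is among the members in each of these counts above 0. It had 0 reads in R&Z flox livers at 1M and passed the filter of this fit only through 3 R&Z del libraries, so nothing is read from it. The likelihood ratio test and DESeq2 called no member in these 6 comparisons. In R&Z flox livers at 21 days Ppara had 128.0, 109.2 and 136.1 CPM against 70.7 to 115.6 CPM at 1M (0.65 ± 0.29, adjusted p = 0.711) and Ehhadh had 146.5, 171.5 and 119.8 CPM against 88.96 to 162.6 CPM (0.64 ± 0.30, adjusted p = 0.711). The genotype difference in Ehhadh moved by −0.87 ± 0.40 at 7 days (adjusted p = 1) and −1.02 ± 0.40 at 21 days (adjusted p = 0.837).

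Wider lists of 87 further genes of fatty acid uptake, carnitine transport, beta-oxidation, omega-oxidation, thioesterases, ketone synthesis and PPAR alpha targets gave the setting. In undamaged livers 1 passed at 1M, Retsat, a retinol saturase (−1.08 ± 0.23, adjusted p = 0.0277), and 0 at 3M and 7M. With library totals Retsat was not called at 1M (−0.89, adjusted p = 0.0750). At 4 days after CCl4, R&Z del against R&Z flox, 6 of 83 tested rose and 22 fell, with a median of −0.54 against 0.06 over all genes. With library totals it was 10 higher and 6 lower, with medians of −0.03 and 0.57. Over all 11358 genes 15.2% were called with TMM, and 2965 genes with library totals. None of the 17 mitochondrial beta-oxidation genes, Acadm included, was above 0 with TMM and 5 were with library totals, while 2 fell. Of the genes named by rank, the fatty acid transporter Slc27a1 (2.22 ± 0.29, adjusted p = 0.00277) and the thioesterases Acot2 (2.39 ± 0.41, adjusted p = 0.00717) and Acot3 (2.25 ± 0.64, adjusted p = 0.0408) rose. The omega-hydroxylases Cyp4a12a (−5.11 ± 0.60, adjusted p = 0.00179) and Cyp4a32 (−2.09 ± 0.27, adjusted p = 0.00259) fell with Retsat (−2.05 ± 0.29, adjusted p = 0.00355), and all 6 were also called with library totals. The Fgf21 co-receptor Klb fell by 1.35 on the log2 scale.

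In R&Z del livers 4 days after CCl4 against undamaged, 37 of the 83 further genes fell and 6 rose, with a median of −0.93. With library totals it was 13 and 9 with a median of −0.28, where all genes had medians of 0.05 and 0.71. Over all 11182 genes 28.4% were called with TMM, and 4394 genes with library totals. Mitochondrial beta-oxidation had 9 of 17 lower and none higher, and peroxisomal beta-oxidation 8 of 15 lower and 1 higher, the transporter Abcd2 (3.01). Of the genes named by rank, Ucp2 (2.46) and Acot2 (2.22) rose with Abcd2, and Cyp4a12a (−7.83), Cyp4a12b (−7.26) and Klb (−2.48) fell. All of these were also called with library totals. In R&Z flox livers 3 rose (Crot 1.12, Acacb 1.25 and Abcd2 3.22) and 2 fell (Aldh3a2 −1.46 and Vnn1 −1.43), where 4.38% of all genes passed, and 0 of 17 mitochondrial genes did. The Vnn1 call was lost with library totals (−1.32, adjusted p = 0.109). The difference between genotypes passed for 3 higher and 29 lower, with a median of −0.83, and for 6 higher and 7 lower with a median of −0.27 with library totals. Over all genes 16.9% passed this test with TMM, and 3079 genes with library totals. Named by rank in the difference were Slc27a1, Acot2 and Vnn1, higher, and Cyp4a12a, Cyp4a12b and Acacb, lower. All were also called with library totals (2.41, 2.89 and 1.98, then −6.91, −4.84 and −2.17). Ppara and Cpt1a were thus 2 of the 39 genes of the whole set of lists, members included, that fell in R&Z del livers with TMM, and neither was called with library totals.

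**Figure D5:**
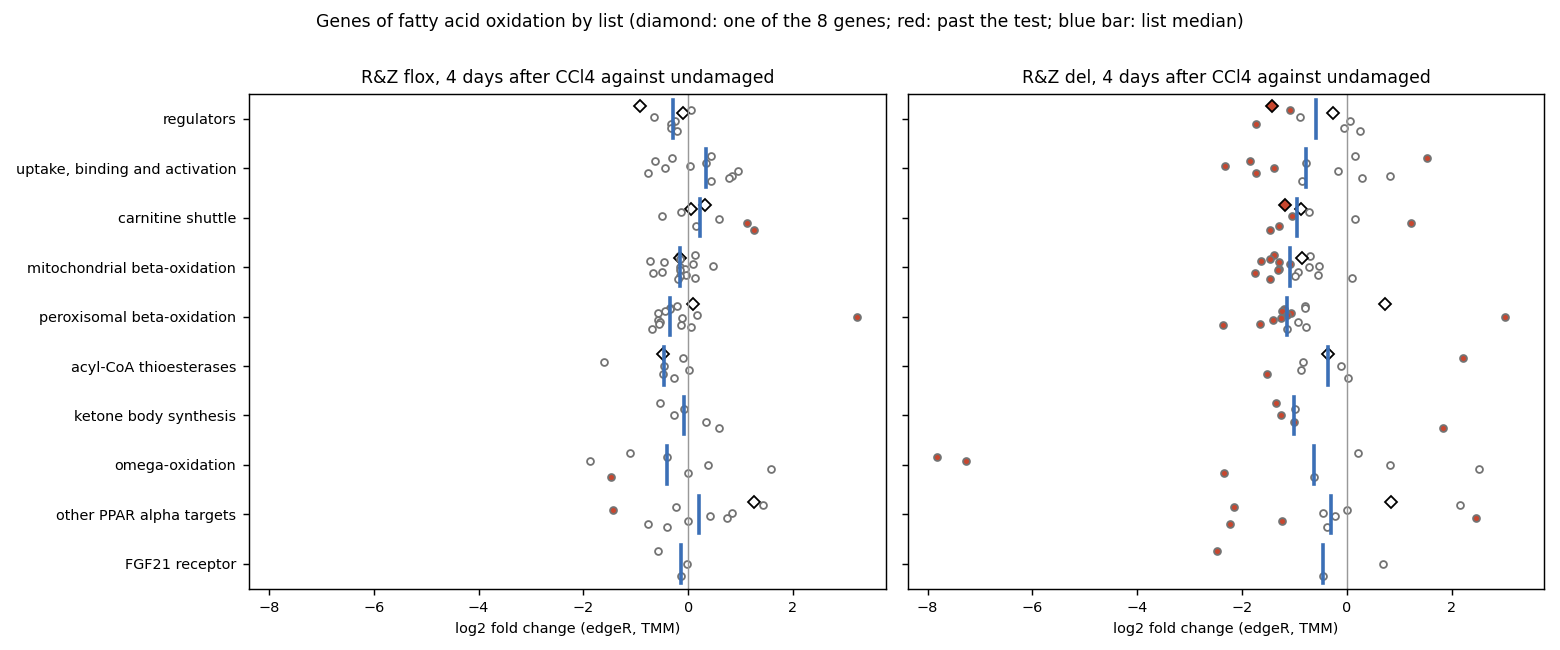
Fitted log2 fold change (horizontal axis, edgeR with TMM) of each tested gene of the pathway lists 4 days after CCl4 against undamaged livers, R&Z flox on the left and R&Z del on the right, with diamonds for the 8 genes, red for genes past the test and blue bars for list medians. In R&Z del livers 9 of 17 mitochondrial beta-oxidation genes are red and below 0, and in R&Z flox livers none is. Over all genes 28.4% passed in R&Z del and 4.38% in R&Z flox livers.

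At 50 days after CCl4, R&Z del against R&Z flox, 1 of the further genes rose (Slc27a1, 1.71) and 4 fell, among them the transporter and synthetase Slc27a2 (−1.36), the electron carrier Etfdh (−1.27) and Retsat (−1.26), with a median of −0.26. These 5 of 83 lie near the 5.58% of all genes called. With library totals Slc27a2, Etfdh and Retsat were not called (adjusted p = 0.110, 0.155 and 0.124), and 1 further gene was higher and 0 lower. Over all genes 224 were called with library totals. Against undamaged R&Z del livers 2 rose (Crot 1.39, Abcd2 2.25) and 14 fell, with a median of −0.64 and with Cyp4a12b (−3.61), Cyp4a12a (−2.18) and Scp2 (−1.64) the furthest down, where 15.3% of all genes passed. With library totals 4 were higher and 5 lower, where 2024 of all genes were called, and Cyp4a12b was not called (−3.21, adjusted p = 0.112). None passed at 170 days between the genotypes. After PHx the ketone enzyme Bdh1 rose at 7 days (1.25 ± 0.22, adjusted p = 0.00885), and at 21 days 5 passed the unadjusted rule, all lower, with Abcd2 (−4.08 ± 1.95, adjusted p = 0.573), Acsl3 (−3.34 ± 1.03, adjusted p = 0.293) and G0s2 (−1.94 ± 0.50, adjusted p = 0.160) the largest. These 5 of 84 lie near the 6.56% of all genes called, and Abcd2 was not called with library totals.

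Across libraries, the members did not vary as 1 block. In the 18 first-batch libraries Pearson's r of log2 CPM was 0.78 between Cpt2 and Acadm and 0.58 between Ppara and Cpt1a, and in the 30 second-batch libraries 0.30 and 0.62. The libraries share genotype, damage and depth, so these values are descriptions. Of 11181 genes compared in the first batch, the closest to Acadm were Abhd3 (r = 0.95), Idh1 (0.93) and Ces1d (0.93), and Ces1d was also the closest to Cpt2 (0.84). Closest to Ppara was Il15ra (0.87), to Ppargc1a AW554918 (0.87), to Cpt1a Gch1 (0.85), to Ehhadh Acer3 (0.89), to Acot1 Cct8 (0.85) and to Fgf21 Psmd1 (0.84). Of 13305 genes in the second batch the closest were Ace to Ppara (0.73), Tmem9 to Ppargc1a (0.67), Dhrs7 to Cpt1a (0.78), Rabep2 to Cpt2 (0.82), Bnip3 to Acadm (0.84), Zmym3 to Acot1 (0.71) and Reep6 to Fgf21 (0.75). None of these 7 members had the same closest gene in both batches.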

How the data were processed

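Liver RNA was made into Smart-Seq2 libraries and read as single 50-base reads. The authors trimmed reads (Sickle in the methods, Trim Galore in the submitters' processing notes), aligned them to mm10 with STAR 2.5.0a and deposited raw counts per gene from featureCounts 1.5.0-p1 and 1.5.0-p3, without strand. Of 55 labelled samples 2 were not analysed here, and 7 had conflicting labels, of which 4 joined no group, 1 served as an alternative and 2 were grouped by their characteristics, which left 48 libraries in the fits. Sex and batch came from the study's sample list. Counts were fitted with edgeR 4.0.16 (quasi-likelihood, TMM) under R 4.3.3, over all genes with over 1 CPM in 3 libraries, or 1 CPM in 50% of libraries in the CCl4 models, following the study's covariates. DESeq2 1.42.0, the likelihood ratio test, other filters, other samples and leaving out each library were alternatives. The genes and lists were chosen with earlier results of these data known. All 8 genes are named in every comparison of the genotypes and counted in those with undamaged livers. Of list genes, the 3 largest changes per direction are named where called and above 5 CPM in a group, and for likeness the 3 highest Pearson correlations of log2 CPM (prior count 3). Scripts were tested on simulated data. The p-values measure the spread between mice, and the floor of 3 counts covers counting error only. The gene closest to Ehhadh in the second batch is not reported here.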

Additional observations from a re-analysis of the deposited data

Results flagged for a closer look

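Acot1 in R&Z del 1M replicate 1, a female, stood at 25.5 CPM, far above the other 3 livers of its group (7.79 to 9.64 CPM), with a gap over the range of 0.895. It was 1 flag among 39 groups tested, where chance flags about 1 in 20.

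The genotype difference in Cpt1a changed from undamaged livers to 4 days after CCl4 by −1.49 on the log2 scale by a test of that difference, with the scaling and the libraries it depends on as given above.

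Among the libraries outside the comparisons, some exceeded the highest of the 4 undamaged R&Z flox livers of the first batch. One unassigned library had 5.43 CPM of Ppargc1a, 280.8 of Cpt1a, 212.8 of Cpt2 and 328.0 of Acadm, where the R&Z flox maxima were 4.72, 212.3, 198.7 and 266.3 CPM. Another had 7.88 CPM of Ppargc1a and 36.2 CPM of Acot1 (maximum 26.3 CPM), and the remaining ones had 4.79 and 5.41 CPM of Ppargc1a. The further R&Z del 7M library had 108.7 CPM of Ppara (maximum 104.4 CPM) and 5.90 CPM of Ppargc1a.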

How the results depend on the processing

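Of 1794 fold changes of the 8 genes under another setting, 1761 kept their side of the threshold, 1698 of them with the same sign and 63 uncalled ones with the other sign, 11 lost a call and 22 gained one. Leaving out 1 library at a time, 3703 of 3744 kept their side, 178 of them uncalled with the other sign, with 29 calls lost and 12 gained. The number of the 8 genes called moved as follows, and the cause was not tested. At 1M it was 0 without the batch term, in males alone, in the second batch alone and with the replicate number as a block. It was 0 too, chosen after seeing the data, without the 2 libraries whose labels disagree. In the 1M libraries alone it was also 0, but there Fgf21 did not pass the low-count filter and was not tested. With library totals alone, also chosen after seeing the data, it was 1 at 4 days after CCl4 (Acot1), 0 at 50 days, 0 for the genotype difference at 4 days and 0 in R&Z del at 50 days. Over all genes library totals gave 2965, 224, 3079 and 2024 calls in the same order. Without the filter on low counts it was 2 at 50 days, 1 at 170 days, 1 in R&Z flox at 4 days, 2 for the difference at 4 days, 2 in R&Z del at 50 days, 1 for the difference at 50 days and 2 in R&Z del at 170 days. Calls over all genes without the filter are given only within the ranges below, so nothing is read from these counts. Without a fold minimum it was 2 at 4 days (Cpt2 and Acadm) and 1 in R&Z flox at 4 days (Ppara). The 50-day libraries alone gave 2 and all first-batch libraries with a sex term 0. The likelihood ratio test gave 1 for the 7M minus 1M difference and 1 at 7 days after PHx, and DESeq2 gave 1 for that difference, 2 in R&Z del at 50 days and 1 in R&Z del at 170 days. Over all genes the calls were 30 and 703 with the likelihood ratio test, and 105, 1925 and 234 with DESeq2.

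Leaving out 1 library gave 0 to 1 at 1M, at 50 days, at 7 days after PHx, in R&Z flox at 4 days and for the difference at 50 days, 1 to 4 in R&Z del at 4 days, 0 to 2 for the difference at 4 days and in R&Z del at 50 days, and 0 elsewhere. Over all genes, the call counts of the main tests and their ranges over other settings were 56 and 14 to 302 at 1M, 29 and 0 to 134 at 3M, and 58 and 21 to 95 at 7M. After CCl4 they were 1729 and 1570 to 3135 at 4 days, 634 and 224 to 1671 at 50 days, and 71 and 0 to 600 at 170 days. After PHx they were 510 and 35 to 754 at 7 days and 838 and 42 to 1189 at 21 days, the lowest with adjusted p. Against undamaged livers at 4 days they were 490 and 218 to 1298 in R&Z flox, 3173 and 2769 to 4820 in R&Z del, and 1890 and 984 to 3079 for the difference. At 50 days they were 1708 and 1318 to 2949 in R&Z del and 171 and 0 to 1674 for the difference. At 170 days they were 8 and 0 to 690 in R&Z del, and for the 7M minus 1M difference 0 and 0 to 105.

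Whether replicate numbers pair the mice could not be told. Same-numbered livers differed in sex at 1M and in part in batch at 7M. With 2 livers a group both numbers give the same correlation by construction. Deviations of same-numbered livers correlated at −0.157 to −0.134 at 1M, −0.0931 to −0.00692 after PHx, −0.344 to 0.484 at 7M, 0.348 at 4 days and −0.333 at 170 days. With the number as a block, the 8 genes gave 0 calls at 1M and 7M, at 4 and 170 days after CCl4 and at both times after PHx and 1 at 50 days, and all genes gave 66, 29, 1678, 484, 55, 419 and 699 in the order 1M, 7M, 4, 50 and 170 days, then PHx. No paired analysis was possible at 3M because the groups share fewer than 2 numbers. With males alone, first-batch R&Z del livers could not be set against the mean of the undamaged 3M and 7M groups, because the R&Z del 3M liver was female. With 1 or 2 livers a group after CCl4 and few or no Fgf21 reads in many second-batch livers, small differences were not detectable at this depth.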

Other observations

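The 4 first-batch libraries that the labels put in no group held the 8 genes mostly at the levels of the other first-batch livers. Ppara ran from 73.4 to 99.0 CPM (median 86.2), Cpt2 from 131.2 to 212.8 CPM (140.8), Ehhadh from 288.7 to 362.1 CPM (317.7) and Fgf21 from 1.66 to 6.32 CPM (3.83). Cpt1a ran from 168.3 to 280.8 CPM (207.6), Acadm from 167.3 to 328.0 CPM (210.1) and Acot1 from 6.46 to 36.2 CPM (17.5). Ppargc1a ran from 4.79 to 7.88 CPM (5.42). The other first-batch livers spanned 71.8 to 269.7 CPM for Acadm, 9.03 to 48.1 CPM for Acot1, 2.58 to 20.2 CPM for Fgf21 and 1.69 to 6.93 CPM for Ppargc1a, so the highest Acadm and Ppargc1a and the lowest Acot1 and Fgf21 lay outside those ranges.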
